A study of Homo sapiens with 84 samples.

Results

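Treatment with tazemetostat, alone or with ipatasertib, opened 4073 ATAC-seq peaks that were closed in untreated cells of all 9 triple-negative breast cancer (TNBC) lines examined. These sites are 0.473% of the 861439 peaks measured. A peak was taken when its mean in DMSO, in CPM (read counts scaled by the library's total count in peaks), was under 0.3 in each of the 9 lines, and when its mean was at least 1 CPM in a TAZ or COMBO group of at least 1 line. The sites were thus chosen by their TAZ, COMBO and DMSO values, and every value of TAZ or COMBO against DMSO at them is a description and not a test. COMBO against TAZ is not independent of the choice either, since a site that met the minimum in 1 of these groups only had to differ between them. Of the 238621 peaks closed in every DMSO group, 1.71% met the rule and the other 234548 did not.

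ATAC-seq uses the Tn5 transposase to cut and tag accessible DNA, so that the number of reads over a site follows how open it is. The Omni-ATAC protocol was used with 50000 cells in each reaction. MDA-MB-231, MDA-MB-468, SUM-149PT and SUM-159PT each had 4 groups: DMSO as vehicle, TAZ (5 uM tazemetostat), IPATA (5 uM ipatasertib) and COMBO (both agents at 5 uM). The other 5 lines (HCC1937, HCC1395, HCC1143, BT-549 and BT-20) had DMSO and COMBO only. As the design text states for MDA-MB-468, cells were kept in tazemetostat or DMSO from day -5, were given ipatasertib on day 0 in medium with 2% FBS and were collected at 24 hours, so the agents differ in time of exposure as well as in target. In that line all groups share the low serum, and the schedule used for the other 8 lines is not given in the sources used here. Each line is a cultured tumour cell line and stands for 1 tumour only, and a bulk library cannot tell more cells with an open site from more opening per cell. Each group had 3 libraries, 78 in all.

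Tazemetostat inhibits EZH2, the catalytic subunit of Polycomb repressive complex PRC2, which methylates lysine 27 of histone H3. That mark lies over developmental genes that a cell type keeps silent, often as broad domains, and regions under it are typically poorly accessible. Ipatasertib inhibits the AKT kinases, which act downstream of PI3K and restrain the FOXO transcription factors.

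The median distance from a site to the start of the gene assigned to it in the deposited annotation was 97.6 kb. That start need not be the nearest one, and distances to other start sites were not measured. Of the sites, 42 (1.03%) overlapped the RefSeq promoter window of a gene, taken from 250 bases before to 50 after its start. The parts of 4 such windows before the start are shown because they give the sequence under a site that opened, for 2 noncoding RNA genes, a cytokine gene and an olfactory receptor gene. They are from RefSeq (GRCh38.p14), 5′ to 3′ on the strand of the gene, with CG dinucleotides, the sites of DNA methylation, in capitals.
OTX2-AS1, chr14:56812908-56813157, plus strand: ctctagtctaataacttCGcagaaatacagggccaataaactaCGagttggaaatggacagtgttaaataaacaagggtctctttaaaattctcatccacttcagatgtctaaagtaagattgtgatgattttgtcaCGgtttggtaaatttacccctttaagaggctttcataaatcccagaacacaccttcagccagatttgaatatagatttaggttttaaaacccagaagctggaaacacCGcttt
LINC01228, chr16:79827151-79827400, minus strand: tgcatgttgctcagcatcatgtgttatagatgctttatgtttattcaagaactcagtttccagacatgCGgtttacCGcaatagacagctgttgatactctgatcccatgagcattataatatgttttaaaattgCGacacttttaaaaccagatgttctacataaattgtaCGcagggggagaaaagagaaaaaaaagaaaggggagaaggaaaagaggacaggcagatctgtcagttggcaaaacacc
IL17A, chr6:52186125-52186374, plus strand: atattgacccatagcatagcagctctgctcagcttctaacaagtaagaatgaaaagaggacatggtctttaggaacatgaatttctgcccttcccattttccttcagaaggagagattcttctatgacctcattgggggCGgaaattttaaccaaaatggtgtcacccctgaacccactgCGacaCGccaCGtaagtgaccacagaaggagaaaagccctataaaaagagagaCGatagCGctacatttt
OR52J3, chr11:5046276-5046525, plus strand: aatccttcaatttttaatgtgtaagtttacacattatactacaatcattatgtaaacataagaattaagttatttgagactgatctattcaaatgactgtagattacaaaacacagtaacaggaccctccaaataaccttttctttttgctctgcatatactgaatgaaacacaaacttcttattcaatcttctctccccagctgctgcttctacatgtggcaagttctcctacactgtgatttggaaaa
These stretches of 250 bases hold 4, 4, 6 and 0 CG dinucleotides in that order. The peak covers 31 bases of the OTX2-AS1 stretch and goes on past the start, all 250 of LINC01228, 169 of IL17A and 115 of OR52J3. The 45 windows under a site had a median of 4 CG in 300 bases, against 3 in 837 windows that lie only under closed peaks that did not open, 20 in windows under any peak and 14 in all 34796 windows. Promoters rich in CG (15 or more in the window) made up 4.44% of the windows under a site (2 of 45), 6.57% of the 837 closed windows and 48.9% of all windows. Motifs were read on both strands and are given by the number of the 45 windows that hold them, beside the share of the 837 closed windows and of all windows. The AP-1 motif TGANTCA was in 6 (13.3%), beside 9.56% and 7.73%, and the forkhead motif GTAAACA in 4 (8.89%), beside 4.06% and 3.42%. TEAD (GGAATG) was in 10 (22.2%), beside 18.8% and 14%, and RUNX (TGTGGT) in 9 (20%), beside 17.8% and 13.1%. The GATA motif AGATAA was in 4 (8.89%), beside 20.1% and 10.4%, and the CTCF core CCCTC in 23 (51.1%), beside 56.4% and 71.2%. With 45 windows these shares rest on few matches and were not tested.

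At OTX2-AS1, a noncoding RNA that starts beside the eye and forebrain homeobox gene OTX2, the 3 MDA-MB-468 libraries gave 0.053, 0.248 and 0.222 CPM in DMSO, 2.08, 1.75 and 1.67 in TAZ and 1.66, 1.35 and 1.35 in COMBO. In SUM-159PT the same peak was at 0.069 CPM on average in DMSO, 0.652 in TAZ and 1.07 in COMBO. The TAZ and COMBO libraries of both lines lay above all of their DMSO libraries. At LINC01228, a long noncoding RNA, SUM-159PT libraries were at 0, 0.287 and 0.192 CPM in DMSO, 0.915, 0.941 and 1.03 in TAZ and 1.81, 1.28 and 1.46 in COMBO. At IL17A, which encodes a cytokine of T helper cells, SUM-159PT libraries were at 0.072, 0.144 and 0.32 CPM in DMSO, 0.51, 0.416 and 0.594 in IPATA, 0.915, 0.878 and 0.913 in TAZ and 1.6, 1.34 and 1.01 in COMBO, so that here IPATA too stood above DMSO. At OR52J3, an odorant receptor, BT-20 libraries were at 0.247, 0.25 and 0.186 CPM in DMSO and 1.83, 1.44 and 1.24 in COMBO, and the highest group of another line was TAZ of SUM-159PT at 0.927 CPM.

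Libraries held 12292571 to 21459284 counts in peaks, so 1 CPM stands for 12.3 to 21.5 counts in a library and 0.3 CPM for 3.69 to 6.44. Of the 78 pairs of replicate libraries within a group, 76 differed by less than sampling noise, with a ratio of observed to Poisson variance of 0.850 at the median (range 0.800 to 1.66). The 2 exceptions both involve HCC1395 DMSO replicate 3. The 3 libraries of a group are therefore counted as 1 sample, intervals for single peaks are exact Poisson 95% intervals on the summed counts that cover counting error only, and a test within a line compares libraries and not cultures. Of 10 breast epithelial marker genes (keratins, EPCAM and others), 8 had a promoter peak and the others had none. The promoter peaks of these 8 summed to 23.2 to 132.5 CPM in DMSO over the 9 lines, with 0 to 3 of the 8 under 1 CPM. Those of 6 mesenchymal markers summed to 65.5 to 248.3 CPM.

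Most sites were little over the threshold. The highest treated group had a median of 1.2 CPM over the sites (quartiles 1.08 to 1.43) and 8.23 CPM at most. It was under 1.1 CPM at 1216 sites, at least 2 CPM at 232 and at least 3 CPM at 34. Just outside the rule, 1798 closed peaks reached 0.9 to 1 CPM. At the DMSO limit, 1929 sites had their highest DMSO group at 0.25 to 0.3 CPM, and 2364 peaks that met the treated minimum missed the rule at 0.3 to 0.35 CPM. Peaks of this height are a few counts from the limits in each library, and with 1 replicate left out 67.6% to 69.3% of the 4073 sites were chosen again.

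Opening was concentrated in 2 lines. SUM-159PT held 2230 of the sites, 1655 at the minimum in TAZ and 1703 in COMBO, and MDA-MB-468 held 1597, 1355 in TAZ and 943 in COMBO. HCC1395 held 153 (COMBO), HCC1143 70, BT-549 67, MDA-MB-231 58, BT-20 52, SUM-149PT 17 and HCC1937 9. The mirrored rule, with COMBO closed in every line and DMSO at 1 CPM or more in at least 1, found 161 peaks against 2938 that opened with COMBO alone, a ratio of 18.2. In single lines, opened and lost sites with COMBO were 1703 and 35 in SUM-159PT, 943 and 63 in MDA-MB-468, 153 and 17 in HCC1395, and 9 and 13 in HCC1937, the only line with more lost than opened. These counts require closure in all 9 lines. By the limits on a line's own DMSO and COMBO alone, opened and lost peaks were 7263 and 330 in SUM-159PT and 9529 and 315 in MDA-MB-468. They were 525 and 367 in HCC1395 and 121 and 61 in HCC1937. With IPATA groups in place of TAZ and COMBO the rule found 1 peak.

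**Figure D1:**
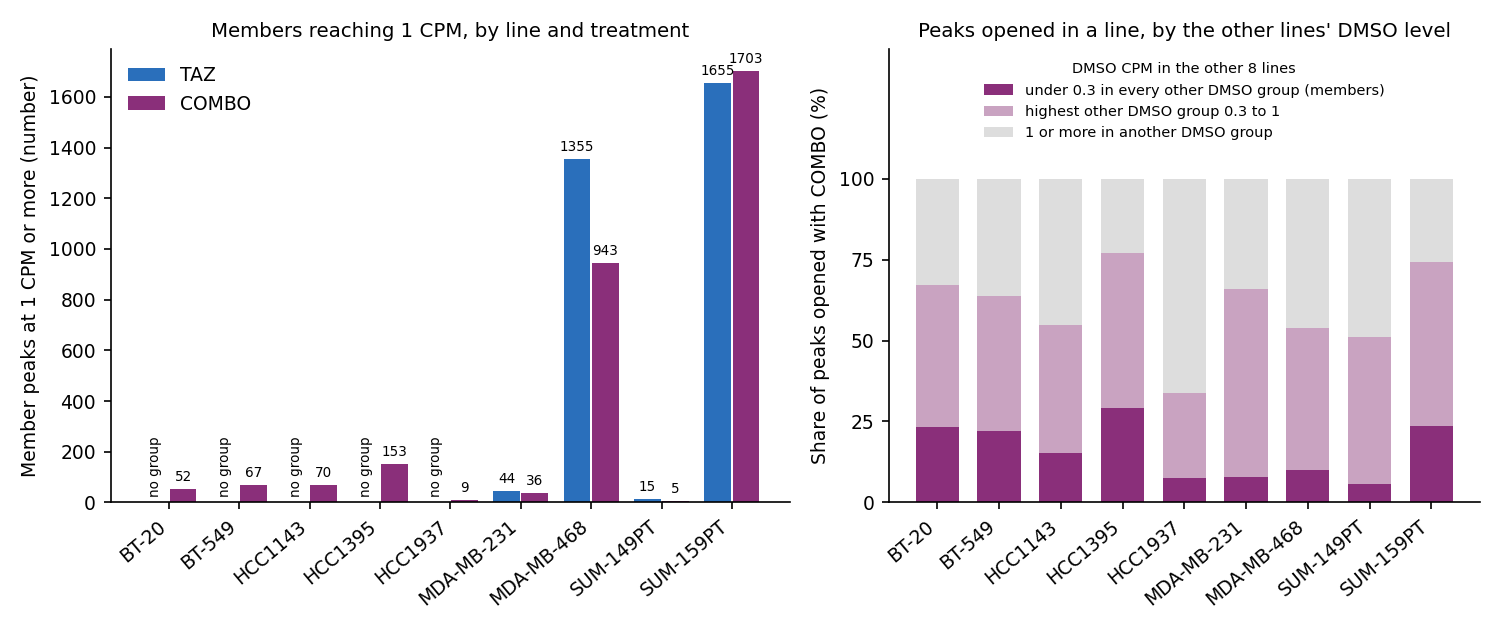
Left, the number of sites (members, y axis) at 1 CPM or more in TAZ and in COMBO of each line (x axis); right, peaks that opened with COMBO in a line, as shares (%) by the highest DMSO level of the other 8 lines. SUM-159PT (1655 and 1703) and MDA-MB-468 (1355 and 943) stand above the other lines, and in no line do peaks closed everywhere exceed 29.1% of those that opened.

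Sites closed in every line were the smaller part of what opened in a line. In MDA-MB-468, 12141 peaks went from under 0.3 CPM in its own DMSO to at least 1 CPM in TAZ, and 1355 of them (11.2%) were closed in the other 8 lines too. Of the others, 45.4% of the 12141 lay between 0.3 and 1 CPM in the DMSO of at least 1 other line and 43.5% at 1 CPM or more. In SUM-159PT the same count was 7206 with TAZ, of which 23.0% were closed everywhere, 50.5% lay between the limits in another line and 26.5% were open in one. In HCC1395 153 of 525 peaks that opened with COMBO (29.1%) were closed in all lines.

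The strongest site lay in the last intron of SFMBT2, which encodes a Polycomb group protein with MBT domains, at chr10:7164924-7165358 (hg38, as deposited). In SUM-159PT its 3 libraries gave 0.286, 0.287 and 0.256 CPM in DMSO, 0.382, 0.139 and 0.264 in IPATA, 8.82, 8.03 and 7.85 in TAZ and 6.96, 7.18 and 6.98 in COMBO. The TAZ mean was 8.23 CPM (Poisson interval 7.43 to 9.08) and the DMSO mean 0.277 (0.143 to 0.482). In MDA-MB-468 the same peak was at 0.222 CPM in DMSO, 0.132 in IPATA, 1.11 in TAZ and 1.43 in COMBO. The IPATA and DMSO libraries overlapped in both lines, and no TAZ or COMBO library of either line fell into its DMSO range.

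The second, at chr10:106836703-106837491 in intron 2 of SORCS1, a sorting receptor of the VPS10 family that is active in neurons, was at 0.43, 0.072 and 0.385 CPM in the SUM-159PT DMSO libraries, 5.82, 6.02 and 5.84 in TAZ and 5.95, 6.51 and 6.53 in COMBO. It was also at 1.18 CPM in COMBO of HCC1395, against 0.178 in DMSO, and at 0.316 CPM in TAZ of MDA-MB-468, against 0.053. SUM-159PT and HCC1395 opened the peak while MDA-MB-468, the other line with many sites, held it under the treated minimum.

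In MDA-MB-468 the strongest site was in intron 48 of LAMA1, the laminin alpha 1 chain of embryonic basement membranes, at chr18:6970086-6970503. Its libraries gave 0.265, 0.496 and 0.055 CPM in DMSO, 0.336, 0.386 and 0.115 in IPATA, 5.13, 5.25 and 4.7 in TAZ and 5.25, 5.71 and 5.48 in COMBO. In SUM-159PT the peak was at 0.138 CPM in DMSO, 0.23 in TAZ and 0.253 in COMBO, with Poisson intervals that overlap, so it met the minimum in 1 of these lines. The highest site among genes of channels and neural receptors was in CACNB2, a beta subunit of voltage-gated calcium channels, at chr10:18297564-18297998, with 0.265, 0.31 and 0.277 CPM in DMSO, 2.99, 3.55 and 3.74 in TAZ and 3, 3.07 and 3.47 in COMBO of MDA-MB-468.

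Upstream of the noncoding RNA LINC00670, an intergenic peak at chr17:12385799-12386588 was at 0.072, 0.072 and 0 CPM in SUM-159PT DMSO, 4.64, 3.2 and 3.83 in TAZ and 4.95, 5.17 and 4.76 in COMBO. In MDA-MB-468 its highest group mean was 0.156 CPM, in COMBO. In PDE10A, the cyclic nucleotide phosphodiesterase of striatal neurons, the highest of its sites (chr6:165812810-165813163, intron 2) was at 0.286, 0.215 and 0.32 CPM in SUM-159PT DMSO, 2.62, 3.07 and 2.86 in TAZ and 3.68, 3.29 and 3.17 in COMBO, and at 0.112, 0.491 and 0.477 CPM in DMSO, TAZ and COMBO of MDA-MB-468.

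**Figure D2:**
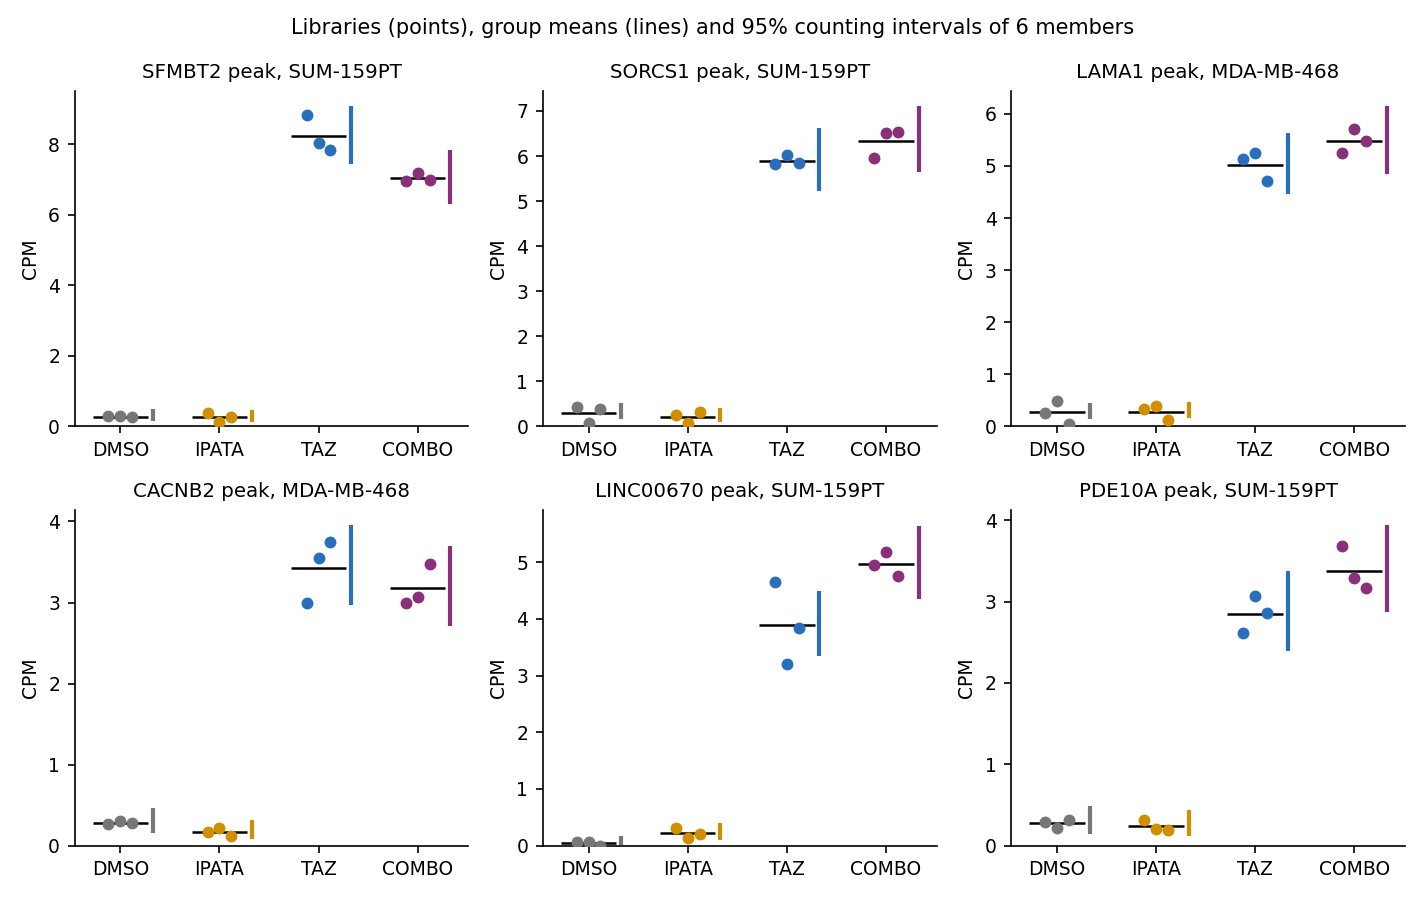
CPM (y axis) of single libraries (points) by treatment (x axis) at 6 of the sites, each in 1 line, with group means as horizontal lines and 95% Poisson intervals as vertical bars. At SFMBT2 the SUM-159PT TAZ mean is 8.23 CPM against 0.277 in DMSO, and at LAMA1 the MDA-MB-468 COMBO mean is 5.48 CPM against 0.272.

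The lines with few sites had lower peaks. The highest COMBO value was 2.51 CPM in HCC1395, at chr13:94762067-94762606 in the noncoding gene LOC101927284 (2.48, 2.6 and 2.45 against 0.363, 0.23 and 0.293 in DMSO). It was 1.91 CPM in BT-549, in intron 12 of CELF2, an RNA-binding splicing regulator (1.87, 2.03 and 1.83 against 0.233, 0.387 and 0.147). In MDA-MB-231 an intergenic peak assigned to LOC101927908 reached 2.09 CPM in COMBO and 2.15 in TAZ, against 0.248 in DMSO and 0.111 in IPATA. None of these TAZ or COMBO libraries overlapped the DMSO libraries of their line. With COMBO, HCC1143 reached 1.8 CPM at most (LOC101928882), BT-20 1.79 (LINC01646), HCC1937 1.45 (near MIR4708) and SUM-149PT 1.36, in intron 2 of ANO3, a membrane protein of the anoctamin family.

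Within the lines that had all 4 groups, the sites were high in TAZ and in COMBO and low in IPATA. Over the 1597 sites of MDA-MB-468 the median was 0.180 CPM in DMSO, 0.150 in IPATA, 1.14 in TAZ and 1.05 in COMBO. Over the 2230 of SUM-159PT it was 0.184, 0.179, 1.12 and 1.14 CPM, over the 58 of MDA-MB-231 0.229, 0.246, 1.07 and 1.05, and over the 17 of SUM-149PT 0.252, 0.269, 1.04 and 0.832. The share of all counts that fell in the 4073 sites was 0.0503% to 0.0534% in the DMSO libraries of MDA-MB-468, 0.0450% to 0.0479% in IPATA, 0.265% to 0.270% in TAZ and 0.234% to 0.236% in COMBO. In SUM-159PT it was 0.0596% to 0.0613%, 0.0623% to 0.0671%, 0.316% to 0.321% and 0.310% to 0.322%. Every IPATA library of SUM-159PT thus lay above every DMSO library in this share, and every IPATA library of MDA-MB-468 below.

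The closed peaks that did not reach the minimum moved with the sites. Their share of the counts was 1.86% to 1.95% in MDA-MB-468 DMSO and 3.8% to 3.88% in TAZ, and 2.15% to 2.20% and 3.46% to 3.53% in SUM-159PT. The share of counts in promoter peaks was 25.9% to 26.2% in MDA-MB-468 DMSO and 21.7% to 22.2% in TAZ, and 22.2% to 23.1% and 19.4% to 19.6% in SUM-159PT. The part of this shift in the opening of single sites was not tested. Scaling by TMM, which is fitted to the bulk of the peaks, lowered TAZ relative to DMSO by 0.31 log2 units in MDA-MB-468 and by 0.17 in SUM-159PT, and left 3115 sites, 2701 of them (66.3% of the 4073) shared with those found here.

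**Figure D3:**
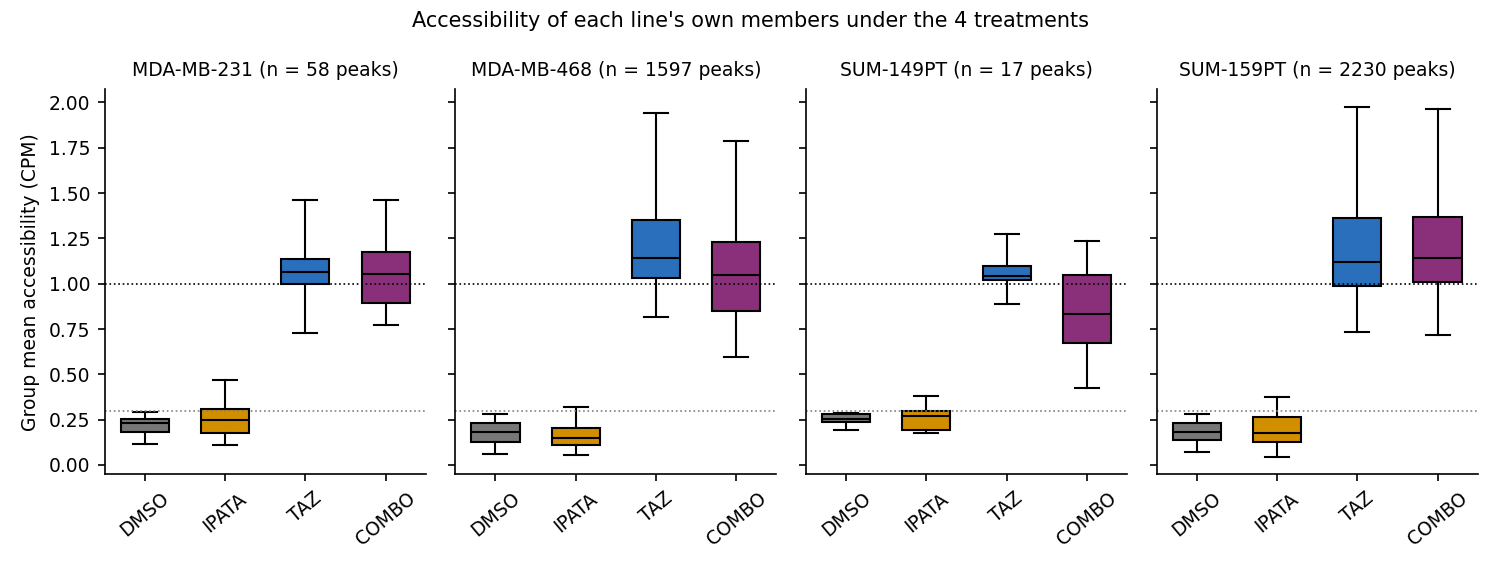
Group mean CPM (y axis) of the sites of each of the 4 lines in DMSO, IPATA, TAZ and COMBO (x axis), with boxes from the lower to the upper quartile, a line at the median, whiskers at the outer percentiles 5 and 95, and dotted lines at the limits of 0.3 and 1 CPM. IPATA sits with DMSO, and the TAZ and COMBO medians are 1.14 and 1.05 CPM in MDA-MB-468 and 1.12 and 1.14 in SUM-159PT.

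IPATA was not used by the rule, but the sites are low in DMSO by choice, and they could pass the count filter through TAZ and COMBO. Both groups compared then hold few counts, and nothing is read from their number beside that of all peaks. Across the 4 lines, with the line as block, edgeR called 0 of the 3027 sites tested in IPATA against DMSO (Benjamini-Hochberg adjusted p under 0.05), beside 0% of all 565986 peaks. At an unadjusted p under 0.05 it gave 18 higher and 18 lower, and the median log2 difference was 0.00. Within MDA-MB-468 edgeR called 4 sites higher and 3 lower in IPATA, beside 4.42% of all peaks in either direction. Within SUM-159PT it called 0 higher and 1 lower, beside 0.33% of all peaks. The highest IPATA mean at a site of the same line was 0.675 CPM in MDA-MB-468 and 0.620 in SUM-159PT, under the treated minimum.

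Choosing sites by a high treated value inflates that value. When the rule was run on 2 of the 3 replicates, 4051 to 4097 sites were found, with a median of 1.2 to 1.21 CPM in the libraries that chose them and 1.1 to 1.11 CPM in the replicate left out. In that replicate 61.1% to 63.0% of the sites were still at 1 CPM or more, and 99.6% of the sites were above DMSO of that replicate. As the replicates may be repeats of 1 culture, this bounds the counting error and not the spread between cultures. The sharper check leaves out a line, since neither its DMSO nor its COMBO libraries then chose the sites.

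Sites chosen in the other 8 lines had a higher mean with COMBO than with DMSO in the line left out, by an amount that differed between lines. In MDA-MB-468 the 2729 sites chosen elsewhere had a mean of 0.117 CPM in DMSO and 0.317 in COMBO, a ratio of 2.70, while closed peaks that were not chosen had a ratio of 1.59. In SUM-159PT 2292 sites had means of 0.185 and 0.419 CPM, a ratio of 2.26, against 1.39. Ratios elsewhere were 1.40 in MDA-MB-231 (1.14 for closed peaks not chosen), 1.37 in BT-20 (1.09), 1.37 in BT-549 (1.14), 1.33 in HCC1395 (1.06), 1.18 in HCC1143 (1.05), 1.14 in SUM-149PT (1) and 1.08 in HCC1937 (0.906). The ratio of the chosen sites was the larger in 9 of 9 lines. A part of the sites can carry a mean. COMBO was above DMSO at 52.2% of the chosen sites in HCC1143 (47.0% of closed peaks not chosen), the lowest share. The highest was 82.2% in MDA-MB-468 (64.3%). The chosen sites had medians of 0.125 CPM in DMSO and 0.129 in COMBO of HCC1937, against 0.0924 and 0.211 in MDA-MB-468. Few of them reached 1 CPM in the line left out: 120 of 2729 in MDA-MB-468 and 234 of 2292 in SUM-159PT, while 9 and 50 of the chosen sites were at that level in DMSO.

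Tested in the line left out with edgeR (Benjamini-Hochberg over all peaks of the line), 463 of the 2729 sites were called higher with COMBO in MDA-MB-468 and 9 lower, where 524 had enough counts to be tested, beside 31.5% of all tested peaks called higher. In SUM-159PT 391 of 2292 were called higher and 19 lower (487 tested, beside 28.5% of all). In the lines with few sites, 139 of 4664 were called higher in BT-549 and 2 lower (271 tested, beside 12.2%), 125 of 4690 and 3 in BT-20 (261 tested, beside 9.85%), and 124 of 4412 and 14 in HCC1395 (270 tested, beside 15%). The remaining lines gave 83 and 2 of 4251 in MDA-MB-231 (175 tested, beside 9.55%), 64 and 12 of 4732 in HCC1143 (187 tested, beside 15.3%), 42 and 4 of 4361 in SUM-149PT (160 tested, beside 12.1%) and 16 and 1 of 4395 in HCC1937 (54 tested, beside 11.8%). A peak that passed the filter only through its COMBO libraries had to be higher, so the share among the tested sites is not read against the background. Counted over all peaks in the table, tested or not, 17.0% of the chosen sites were called higher in MDA-MB-468, beside 10.4% of all peaks, and 17.1% beside 8.92% in SUM-159PT. The shares were close in BT-20 (2.67% beside 2.56%). In the other 6 lines the share of the chosen sites was below that of all peaks: 2.98% beside 3.38% in BT-549, 2.81% beside 3.71% in HCC1395, 1.95% beside 2.29% in MDA-MB-231, 1.35% beside 3.38% in HCC1143, 0.963% beside 3.24% in SUM-149PT and 0.364% beside 3.32% in HCC1937. These shares too depend on how many sites had enough counts, and were not tested against each other.

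Of the 4073, 3901 reached the minimum in TAZ or COMBO of 1 line, 164 in 2 lines and 8 in 3. With COMBO alone, 2844 did so in 1 line, 88 in 2 and 6 in 3. MDA-MB-468 and SUM-159PT shared 120, which is 7.51% of the sites of MDA-MB-468 and 5.38% of those of SUM-159PT. Beside this, the sites of SUM-159PT were 2230 of all 238621 closed peaks and those of MDA-MB-468 1597. MDA-MB-231 shared 10 of its 58 with SUM-159PT (17.2%) and 7 with MDA-MB-468 (12.1%), and SUM-149PT shared 6 of its 17 with MDA-MB-468. Sites of SUM-159PT had a mean of 0.1005 CPM in DMSO and 0.297 in COMBO of MDA-MB-468, while closed peaks that did not open had 0.0811 and 0.137. The latter exclude every peak that met the minimum in MDA-MB-468, while the sites of SUM-159PT include the 120 shared ones. A part of this gap is thus set by the choice.

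The 6 sites at 1 CPM or more in COMBO of 3 lines lay at FNDC1, ACTN2, PAX3, POTEKP and TEMN3-AS1 (spelled as in the deposited annotation) and at a locus on chromosome 8. In exon 6 of FNDC1, a fibronectin type III domain gene (chr6:159221557-159222138), COMBO means were 1.08 CPM in MDA-MB-231, 1.48 in MDA-MB-468 and 1.66 in SUM-159PT, against 0.184, 0.213 and 0.296 in DMSO. BT-20 (0.957) and HCC1143 (0.908) came just under the minimum there. In intron 1 of ACTN2, the alpha-actinin of muscle Z-discs, COMBO means were 1.07 CPM in HCC1143, 1.38 in MDA-MB-231 and 1.54 in SUM-159PT, against 0.298, 0.162 and 0.25 in DMSO. In intron 7 of PAX3, a paired homeobox factor of neural crest and muscle progenitors (chr2:222209095-222209694), they were 1.78 CPM in BT-20, 1.1 in MDA-MB-468 and 1.01 in SUM-159PT, against 0.29, 0.041 and 0.165. With COMBO, HCC1937 had 0.239, 0.166 and 0.239 CPM at these peaks and SUM-149PT 0.241, 0.302 and 0.055, all under the minimum.

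In SUM-159PT 1128 of 2230 sites (50.6%) met the minimum in both TAZ and COMBO. In MDA-MB-468 701 of 1597 (43.9%) did so, in MDA-MB-231 22 of 58 (37.9%) and in SUM-149PT 3 of 17 (17.6%). Only 2 TAZ sites of MDA-MB-468 and 1 of SUM-149PT were under 0.3 CPM in COMBO, and 0 COMBO sites were under 0.3 CPM in TAZ of their line.

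**Figure D4:**
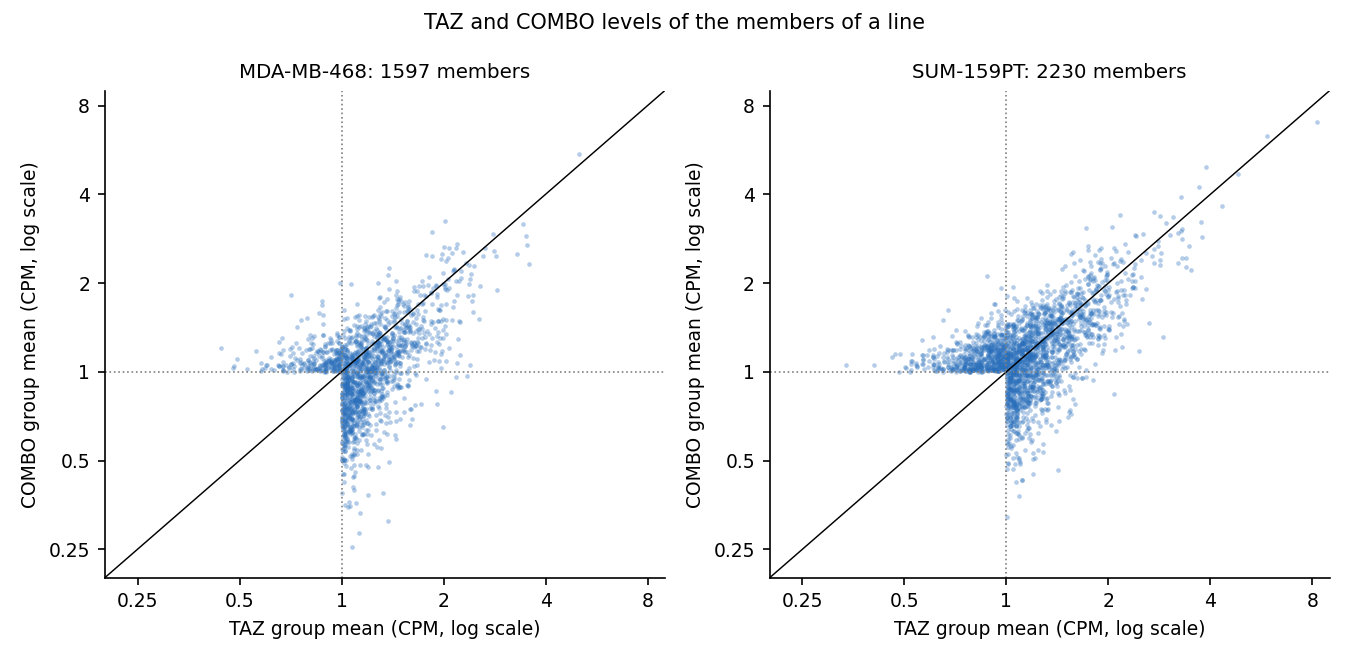
Mean CPM in COMBO (y axis) against TAZ (x axis) of each site in MDA-MB-468 and SUM-159PT, both axes on a log scale, with the line of equality. Sites of MDA-MB-468 lie below the line on balance (medians 1.05 and 1.14 CPM) and those of SUM-159PT about it (1.14 and 1.12).

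Across the 4 lines edgeR called 0 of 3027 sites tested in COMBO against TAZ, beside 0% of all 565986 peaks, and DESeq2 called 0. Fitted to the compared groups alone, edgeR called 1 higher and 3 lower of 2379. At an unadjusted p under 0.05, edgeR gave 4 higher and 16 lower, and the median log2 difference was 0.01 over the sites and 0.00 over all peaks. In simulated data of this size the fit recovered 13% of 2-fold and 95% of 4-fold changes, so a difference of 2-fold would mostly be missed. Whether the 13% and 95% hold at the low counts of the sites, or for a difference confined to 1 line, was not tested. Most sites, 3901 of the 4073, reached the minimum in TAZ or COMBO of 1 line only. The lowest log2 differences were -1.41 (SE 0.56) at PCDH9, a neural protocadherin, -1.31 (SE 0.45) at LOC105375371, and -1.17 (SE 0.36) at PRKG1, the cGMP-dependent protein kinase. The highest were 1.17 (SE 0.41) at IRF8, a transcription factor of myeloid cells, and 1.05 (SE 0.46) at PLUT, a noncoding RNA of the PDX1 locus. None of these passed (adjusted p = 1, edgeR).

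Within a line the counts of calls are a description, since TAZ and COMBO values chose the sites. In MDA-MB-468 edgeR called 28 sites higher in COMBO than in TAZ and 115 lower among 1896 tested, beside 5.66% of all peaks called higher and 2.98% lower, and the median log2 difference was -0.16. In SUM-159PT it called 22 higher and 31 lower of 2376, beside 1.96% and 1.26% of all peaks, with a median of 0.06. In SUM-149PT it called 0 higher and 3 lower of 42, beside 3.99% and 2.8%. In MDA-MB-231 it called 0 of 116 in either direction, beside 0.0411% and 0.03%, with 5 higher and 1 lower at an unadjusted p under 0.05. These counts depend on the tool: DESeq2 without its independent filtering called 3 higher and 12 lower in MDA-MB-468, 0 and 1 in SUM-159PT and 0 in SUM-149PT. With 1 replicate left out, edgeR called 39 to 57 lower in MDA-MB-468 and 6 to 9 in SUM-159PT. A site that entered through TAZ alone is high in TAZ by choice, and 1355 sites entered through TAZ in MDA-MB-468 against 943 through COMBO. In a replicate left out of the choice, the MDA-MB-468 medians were 1.07 to 1.11 CPM in TAZ and 0.942 to 0.982 in COMBO, and in SUM-159PT 1.07 to 1.11 and 1.08 to 1.14. The other libraries of the same groups chose these sites and may be repeats of 1 culture, so the effect of the choice is not removed.

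At PRKG1 (chr10:51542731-51543228, intron 3) TAZ and COMBO parted in 2 lines. MDA-MB-468 libraries were at 0.159, 0.124 and 0.222 CPM in DMSO, 1.01, 1.2 and 1.01 in TAZ and 0.161, 0.307 and 0.294 in COMBO, a log2 difference of -2.03 (SE 0.40). SUM-149PT libraries were at 1.29, 1.49 and 1.04 CPM in TAZ and 0.501, 0.525 and 0.434 in COMBO (-1.35, SE 0.31). SUM-159PT was at 1.26 CPM in TAZ and 0.891 in COMBO. This site met the minimum in TAZ of these 3 lines and in COMBO of none, so these differences are given with no test.

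Other sites that differed were at single genes, named after their values were seen. The lowest COMBO value relative to TAZ in MDA-MB-468 was in intron 3 of RYR2, the calcium release channel of heart muscle, at 1.01, 1.42 and 1.67 CPM in TAZ and 0.214, 0.430 and 0.294 in COMBO (-2.09, SE 0.35). It was followed, after PRKG1, by an intron 2 site of RELN, the secreted guide of neuronal migration, at 1.23, 0.984 and 1.16 CPM in TAZ and 0.375, 0.184 and 0.294 in COMBO. In the other direction, KLHL29 held a site at 0.481, 0.328 and 1.31 CPM in TAZ and 1.71, 1.97 and 1.77 in COMBO, and at 0.675 CPM in IPATA, the highest IPATA value among the sites of this line. The 115 sites that were lower lay at 105 assigned genes, with 2 at most for 1 gene. In SUM-159PT the last exon of IRF8 was at 0.392, 0.564 and 0.73 CPM in TAZ and 1.07, 1.52 and 1.27 in COMBO (1.2, SE 0.33), and KCNH7, a potassium channel gene, at 2.55, 3.01 and 2.37 in TAZ and 1.41, 1.52 and 1.46 in COMBO (-0.82, SE 0.20).

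The sites were clustered along the genome. Joining sites of a line with gaps of at most 100 kb gave 17 domains with at least 10 sites in MDA-MB-468, which held 276 sites (17.3%), and 22 in SUM-159PT, which held 402 (18%). Sites with no other site within 100 kb made up 32.6% and 25.2% of the sites of these lines. The largest domain of SUM-159PT ran over SFMBT2 and ITIH5 for 719.6 kb (chr10:6966364-7685995) and held 69 sites. All 387 peaks of that stretch summed to 102.1 CPM in DMSO, 97.4 in IPATA, 760.8 in TAZ and 783.2 in COMBO. The largest of MDA-MB-468 ran over LAMA1 and LRRC30 for 590.1 kb (chr18:6931024-7521134) with 59 sites, and its 287 peaks summed to 108 CPM in DMSO, 97.0 in IPATA, 635.3 in TAZ and 628.7 in COMBO.

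Both stretches held peaks that could not be sites, because DMSO of another line was at 0.3 CPM or more. In the LAMA1 stretch 125 such peaks summed to 81.0 CPM in DMSO and 460.2 in TAZ of MDA-MB-468, and 121 of the 121 tested were called higher (edgeR), beside 31.8% of all tested peaks of the line. In the SFMBT2 stretch 158 such peaks summed to 75.1 and 551.8 CPM in SUM-159PT, with 145 of 146 tested called higher, beside 27.9% of all tested peaks of that line. Both stretches were picked for their many sites in these same libraries, and peaks with few counts were not tested. The counts of calls are thus a description. The stretches of other lines differed. Over the SFMBT2 stretch COMBO and DMSO summed to 415.5 and 95.2 CPM in MDA-MB-468, 125.7 and 87.7 in HCC1395, and 106.6 and 107 in BT-20. Over the LAMA1 stretch they summed to 323.4 and 87.9 CPM in SUM-159PT, 152.6 and 138.5 in SUM-149PT and 180.1 and 192.3 in BT-20.

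The same was seen around sites in general. Peaks kept out of the rule by another line's DMSO were split by their distance to the nearest site of the line. In MDA-MB-468 mean CPM in TAZ over DMSO was 4.26 within 10 kb, 3.12 from 10 to 50 kb, 1.55 from 50 to 200 kb, 1.01 from 200 to 1000 kb and 0.904 beyond. edgeR called 97.1%, 92.7%, 71.6%, 34.5% and 17.6% of the tested peaks higher in these bins, beside 31.8% of all tested peaks of the line. Over all peaks of the bins, tested or not, the shares were 76.4%, 63.0%, 39.6%, 15.4% and 7.42%. A peak could pass the count filter through its treated libraries alone, so the tested shares are not read against the background. In SUM-159PT the ratios were 3.41, 2.33, 1.31, 0.945 and 0.916, with 91.9%, 82.3%, 54.8%, 21.4% and 15.9% of the tested peaks called higher, beside 27.9% of all tested. Over all peaks of these bins the shares were 65.1%, 52.1%, 28.2%, 9.21% and 6.19%. IPATA over DMSO lay between 0.918 and 1.005 in all of these bins.

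The split was repeated for those of the kept-out peaks that were low in DMSO of the line. Among peaks under 0.3 CPM in DMSO of the line, those within 50 kb of a site went from 0.146 to 0.744 CPM with TAZ in MDA-MB-468 (ratio 5.10), and those farther away from 0.135 to 0.254 (1.89). In SUM-159PT the ratios were 4.03 and 1.42. These neighbours share the contrast and the libraries that chose the sites, so the values describe how far the opening extended and were not used as a test.

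**Figure D5:**
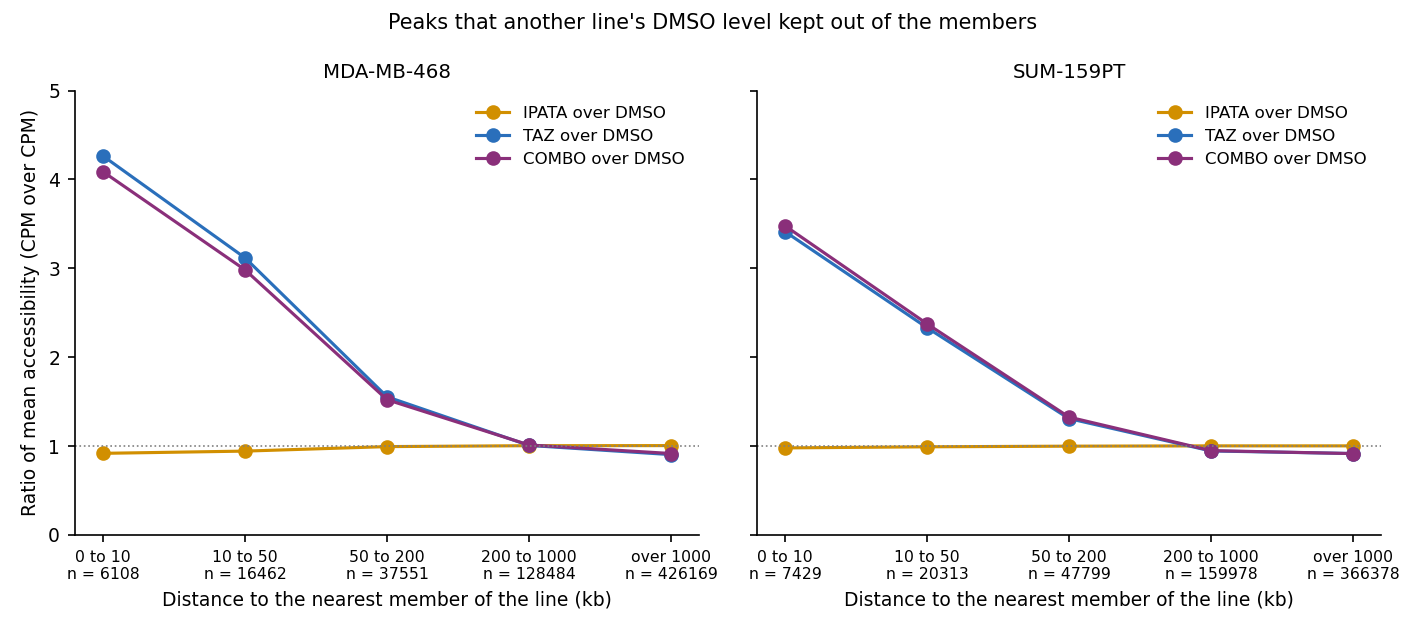
Mean CPM in IPATA, TAZ and COMBO over that in DMSO (y axis, ratio) of peaks kept out by another line's DMSO, by distance in kb to the nearest site of the same line (x axis), for MDA-MB-468 and SUM-159PT. TAZ over DMSO goes from 4.26 within 10 kb to 0.904 beyond 1000 kb in MDA-MB-468 and from 3.41 to 0.916 in SUM-159PT, while IPATA remains near 1.

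Sites were found at 1735 assigned genes, the assignment being that of the deposited table. A single site was assigned to 1002 of these genes, while 184 genes with at least 5 held 40.8% of all sites. PDE10A had 48 (45 open in SUM-159PT and 10 in MDA-MB-468), which is 30.8% of the closed peaks assigned to it. SFMBT2 had 45 (42 and 10; 57.0% of its closed peaks). LAMA1 had 38, all open in MDA-MB-468 and 1 in SUM-159PT as well (61.3%), and SORCS1 31, all open in SUM-159PT (16.3%). The next were ADARB2, an RNA-editing enzyme homologue of the brain, with 23 (21 in MDA-MB-468), and RORA, a retinoic acid receptor-related nuclear receptor, with 23 (19 in SUM-159PT).

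Long genes hold more peaks, so these counts are not set against each other without the closed peaks beside them. The highest RORA site (chr15:60773938-60774279, intron 1) was at 0.286, 0.287 and 0.256 CPM in DMSO, 2.62, 2.57 and 2.86 in TAZ and 2.07, 2.43 and 2.92 in COMBO of SUM-159PT. The highest ADARB2 site (chr10:1434251-1434566, intron 1) was at 0.106, 0.186 and 0.222 CPM in DMSO, 1.87, 1.91 and 2.17 in TAZ and 1.12, 1.1 and 1.29 in COMBO of MDA-MB-468, a log2 difference of -0.72 (SE 0.21) between COMBO and TAZ. Of 2342 sites inside a gene, 162 (6.92%) lay in a gene other than the one assigned. CNTNAP2, a neurexin-family adhesion protein of neurons named after its values were seen, held 34 by position, beside 44 in PDE10A, 41 in SFMBT2 and 29 in LAMA1. The deposited assignment gave 12 sites to its antisense gene CNTNAP2-AS1.

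By chromosome, 195 of the 1597 sites of MDA-MB-468 (12.2%) lay on chromosome 18, which holds 2.64% of the closed peaks, and 247 of the 2230 of SUM-159PT (11.1%) on chromosome 10, which holds 5.32%. Closed peaks of chromosome 18 had a mean DMSO value 1.07 times that of all closed peaks in MDA-MB-468, and those of chromosome 10 1.02 times in SUM-159PT. Copy number was not measured here, and its part was not tested.

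Promoters, within 3 kb of a start site in the deposited annotation, made up 2.58% of the sites, 2.30% of the closed peaks that did not open and 5.59% of all peaks. Introns held 55.7%, 54.4% and 51.1%, and distal intergenic sequence 33.4%, 36.2% and 32.7%. The median distance to the assigned start site was 97.6 kb for the sites, 73.4 kb for closed peaks that did not open and 56.1 kb for all peaks. Sites were wider than the closed peaks that did not open, with medians of 352 and 155 bp, against 295 bp for all peaks. CPM is not per length, so a wider peak reaches 1 CPM more easily, and the part of width was not tested.

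Gene lists are described by the share of their closed peaks that were sites, beside 1.71% of all closed peaks, with no test on any list. PRC2 developmental targets, genes that carry the PRC2 mark in many cell types, held 44 sites at 19 of 99 genes, 4% of the closed peaks assigned to them. The sites lay at PAX3 (6), SOX1, TBX5 and FOXB1 (5 each), PROX1 (4) and EN1 (3) among others, and 5 of the 44 were within 10 kb of the start. Homeobox genes held 64 (3.48%), of which 18 were at ZFHX3. SUM-159PT opened 28 of the 44 sites, MDA-MB-468 20 and BT-20 1.

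At FOXB1, a forkhead factor of the developing brain, an intergenic site (chr15:59924739-59925099) was at 0.143, 0.072 and 0.128 CPM in SUM-159PT DMSO, 1.7, 1.88 and 2.13 in TAZ and 2.07, 2.37 and 2.79 in COMBO. At OLIG3, a bHLH factor of the spinal cord, a site was at 0.286, 0.215 and 0.128 CPM in DMSO, 1.9, 1.82 and 1.95 in TAZ and 2.34, 2.13 and 2.22 in COMBO. TBX5, the T-box factor of heart and forelimb, had an intronic site at 1.45 CPM in TAZ and 1.82 in COMBO against 0.136 in DMSO, and another at 1.47 and 1.79 against 0.298. All of these are SUM-159PT values, and no TAZ or COMBO library overlapped DMSO. At PROX1, the homeobox factor of lymphatic endothelium, a site in intron 2 (chr1:214004119-214004372) reached the minimum in both lines, with 1.8 CPM in TAZ against 0.179 in DMSO in SUM-159PT and 1.11 against 0.206 in MDA-MB-468.

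Lists of genes of other tissues held sites too. Genes of neural receptors and channels held 166 at 60 genes (2.19% of their closed peaks), led by DLGAP1 (13) and GABRB1 (12), a postsynaptic scaffold and a GABA receptor subunit. Endothelial genes held 12 (3.93%), 7 at ERG, an ETS factor of endothelium, and MDA-MB-468 held 11 of the 12. The highest ERG site, in intron 3, was at 0.371, 0.062 and 0.277 CPM in DMSO, 1.92, 1.86 and 2.12 in TAZ and 1.34, 1.29 and 1.82 in COMBO. Promoter peaks of the 5 endothelial markers, ERG among them, summed to 17.1 CPM in DMSO and 19.7 in COMBO of MDA-MB-468, with 2 of 5 under 1 CPM in each. Immune cell genes held 7 sites (2.37%), all at IKZF1, a zinc finger factor of lymphoid cells, and 6 of them open in MDA-MB-468. Of 5 immune markers, 3 had a promoter peak and the others had none. The promoter peaks of these 3 summed to 70.5 CPM in DMSO and 62.7 in COMBO of MDA-MB-468, with 1 of the 3 under 1 CPM in each. Whether cells of another type added to these sites was not tested; the libraries are of cultured lines.

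The cancer-testis, cadherin, olfactory receptor and zinc finger lists, like the homeobox and neural ones, were drawn by gene symbol. Such lists can take in other genes. The cancer-testis list held 21 sites (2.87%), 7 of them at TEX41, which is on the list by its symbol only. Cadherins and protocadherins held 27 (1.61%), olfactory receptors 19 (1.51%) and zinc finger genes 31 (1.51%). Genes with names of long noncoding RNAs held 1228 (1.83%). Mammary and luminal genes held 5 (1.30%): 2 at ESR1, the oestrogen receptor, and 1 each at PGR, the progesterone receptor, KIT and A2M. The A2M site was at 0.089 CPM in DMSO, 0.758 in TAZ and 1.5 in COMBO of MDA-MB-468, a log2 difference of 1 (SE 0.27) between COMBO and TAZ. FOXO and AKT pathway genes held 3 (1.04%): 2 at IGF1R and 1 at SESN3, a sestrin that FOXO factors induce. Cell cycle genes, with 102 closed peaks, and housekeeping genes, with 29, held 0.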

How the data were processed

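Accessibility was measured by ATAC-seq in 78 libraries of 9 cell lines. The authors deposited 1 table of read counts per peak on hg38 with gene annotation, and per the submitters' processing notes MACS2 and featureCounts were among the tools used. Their versions and the read aligner are, in the sources used here, not given. The 6 labelled samples of HCC1806 were not analysed here. Groups came from the sample titles.

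CPM was computed here from the deposited counts over the library's total count in peaks. Tests were edgeR 4.0.16 quasi-likelihood fits (R 4.3.3, TMM, filterByExpr with a minimum count of 10) over all peaks, with Benjamini-Hochberg adjustment at 0.05, within each line over its 3 replicate libraries per group and across the 4 lines with line as a term, where each group of libraries counted as 1 sample. DESeq2 1.42.0 was the alternative. The fits were tested on simulated data. No label says that replicates came from separate cultures, so p-values within a line measure only the spread between these libraries.

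The sites and gene lists were chosen with earlier results of these data known. Named sites are those shared by the most lines with COMBO, the highest of each line, the highest of each gene list and of the genes with most sites, and the 3 lowest and highest in COMBO against TAZ. Others are said to be chosen after their values were seen. Gene names are those of the deposited annotation, of which 97.9% of the sites matched RefSeq by gene ID. Alternatives were other limits, scalings, filters, libraries and lines left out, and a replicate block.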

Additional observations from a re-analysis of the deposited data

How the results depend on the processing

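The number of sites depended on its limits. It was 846 with a DMSO limit of 0.2 CPM and 16132 with 0.5, 35876 with a treated minimum of 0.5 CPM and 232 with 2, 2292 without SUM-159PT, 1 with IPATA in place of TAZ and COMBO, and 161 under the mirrored rule. Under the other settings it was 2729 to 4732. The median of the treated value, 1.2 CPM in the choosing libraries, was 1.095 to 1.111 in a replicate left out. Leaving a line out of the choice lowered its mean COMBO over DMSO from 4.51 to 2.70 in MDA-MB-468, 5.23 to 2.26 in SUM-159PT, 1.68 to 1.33 in HCC1395, 1.5 to 1.4 in MDA-MB-231, 1.49 to 1.37 in BT-20, 1.47 to 1.37 in BT-549 and 1.35 to 1.18 in HCC1143. Promoters held 1.74% of the sites of 2 or more lines and 1.29% of those at 2 CPM or more. The median distance was 83.8 kb for sites of 2 or more lines, 108.8 and 88.1 kb with DMSO limits of 0.2 and 0.5, and 89.9 and 107.7 kb with treated minimums of 0.5 and 2.

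Counts of sites called in COMBO against TAZ depended most on the processing. Across 4 lines, fitting only the compared groups gave 1 higher and 3 lower of 2379 tested in place of 0. Within MDA-MB-468 (28 higher, 115 lower) DESeq2 gave 0 and 0, since its filter left 55 of 1896 sites, and 3 and 12 without that filter, an alternative chosen after seeing the data. A minimum count of 30 gave 8 and 25, no filter gave 58 lower, and leaving out a replicate gave 10 to 15 and 39 to 57. Sites chosen by COMBO of the 5 lines without TAZ gave 1 and 1. Within SUM-159PT (22 and 31) DESeq2 gave 0 and 0 with 16 sites left, and 0 and 1 without its filter. A minimum count of 30 gave 5 and 9, no filter 15 lower, a replicate left out 3 to 10 and 6 to 9, and sites chosen in the 5 lines 0 and 0. The 3 lower sites of SUM-149PT became 0 with unfiltered DESeq2, 1 to 2 without a replicate and 0 when chosen in the 5 lines. A minimum count of 30 gave no value in SUM-149PT, and filtered DESeq2 none there or in MDA-MB-231.

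With a replicate block the counts were 28 and 113 in MDA-MB-468, 22 and 31 in SUM-159PT, 0 and 3 in SUM-149PT and 0 and 0 in MDA-MB-231, so it changed no call count by over 1.5 times. Libraries with the same number had correlations of -0.047 to 0.057 between their deviations from group means, none over 0.1, so the numbers do not pair them, and of 18 comparisons of a library with the libraries of another group in each line, its own number correlated best in 12 in MDA-MB-468, 8 in MDA-MB-231, 7 in SUM-159PT and 5 in SUM-149PT. About 4 to 6 counts lie behind 0.3 CPM in a library, so single sites near a limit are uncertain.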
